A study of Homo sapiens with 6 samples.

Results

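The miR-30 family was read in both arms across the 6 small RNA libraries of the series. Its members were every mature miRNA named hsa-miR-30a, hsa-miR-30b, hsa-miR-30c, hsa-miR-30d or hsa-miR-30e (hsa marks human), which gave 10 of the 449 miRNAs with values: 5 from the 5p arm and 5 from the 3p arm. The 3p arms were those of miR-30a, miR-30d and miR-30e and both 3p arms of miR-30c, miR-30c-1-3p and miR-30c-2-3p, and the 3p arm of miR-30b was not analysed here. The RA group was 3 libraries of stem-like cells (BCSCs) that descend from MDA-MB-231, a line of triple-negative breast cancer, with WT genotype, after 48 h in 200 μg/mL rosmarinic acid (RA), a plant phenolic acid extracted here from S. glabra. The control group was 3 libraries of the same cells, also WT and also taken at 48 h, at 0 μg/mL RA. The study's methods describe culture in serum medium and as low-attachment spheres in serum-free medium, without saying which applied to the sequenced cells. Every library came from derivatives of 1 established cell line. The labels speak of 3 wells per group and do not say whether these were independent cultures, so the p-values below measure the spread between these libraries.

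A miRNA hairpin is cut into a duplex of a 5p and a 3p strand. One strand, the guide, is usually kept by an Argonaute protein, and its seed, the bases near its 5′ end, pairs with target mRNAs and lowers their output. In the miR-30 family the 5p strand is the usual guide in most tissues and the 3p strand is the usual passenger. The family is known for restraining mesenchymal and stem-like features in breast tumors in several reports, and for targeting BCL2L11, which encodes Bim, a protein that promotes apoptosis and that the study followed beside miR-30a.

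The mature sequences below are from RefSeq on GRCh38.p14 and are shown because the family divides by them. They are written 5′ to 3′ with the seed, bases 2 to 8, in capitals.
miR-30a-5p: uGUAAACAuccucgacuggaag
miR-30e-5p: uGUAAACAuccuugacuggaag
miR-30c-5p: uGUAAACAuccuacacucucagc
miR-30a-3p: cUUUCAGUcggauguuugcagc
miR-30e-3p: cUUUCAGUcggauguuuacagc
miR-30c-1-3p: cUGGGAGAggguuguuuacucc
miR-30c-2-3p: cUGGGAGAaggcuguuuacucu
The 3 printed 5p arms share 1 seed and differ only behind it. Counted from 1 at the 5′ end of miR-30a-5p, miR-30e-5p differs from it by C13U alone, while miR-30c-5p differs at 5 of 22 compared bases, C13A, G14C, G18C, G19U and A20C. On the 3p side, miR-30a-3p and miR-30e-3p differ by G18A alone. The miR-30c 3p arms carry another seed and differ from each other by G9A, U12C and C22U. Between miR-30a and miR-30e, in either arm, a read with 1 error at the differing base can be counted for the other member. How the counting treated such reads is not given in the sources used here. Of the 449 miRNAs, 404 were matched to RefSeq by name, and none of those outside the family carried any of these 3 seeds.

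The 6 hairpin genes lie in 3 pairs on GRCh38. That build is used for positions only, as the files name miRNAs without coordinates and hg19 is the build in the submitters' processing notes. MIR30E (chromosome 1, 40754355 to 40754446) and MIR30C1 (40757284 to 40757372) are 2837 bases apart in introns of NFYC, a gene of a CCAAT-binding transcription factor. MIR30C2 (chromosome 6, 71376960 to 71377031) and MIR30A (71403551 to 71403621) are 26519 bases apart on the minus strand, in introns of the non-coding genes LINC00472 and AL136164.2. MIR30B (chromosome 8, 134800520 to 134800607) and MIR30D (134804876 to 134804945) are 4268 bases apart on the minus strand, with no host gene on that strand in GENCODE. miR-30c-5p can come from MIR30C1 or MIR30C2, whose mature 5p sequences are identical.

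Values are the authors' CPM, reads scaled to a common library size, here on an effective library size. They were whole multiples of the value of 1 read, within 0.01 reads, so the reads behind them are known. The RA libraries held 1158116, 176590 and 298412 miRNA reads and the controls 2190324, 4111404 and 3423545, so depth moved with the group. The 5p members rested on 30128, 4746 and 8133 reads in the RA libraries and on 133413, 221029 and 178854 in the controls. For the 3p members these were 1412, 201 and 352 reads in the RA libraries and 2244, 4198 and 3681 in the controls. Of the miRNAs that mark MDA-MB-231, miR-21-5p, miR-221-3p, miR-222-3p and miR-146a-5p were present in every library at 504 CPM or more, and the epithelial marker miR-200c-3p was at 2.96 to 5.82 CPM. Some markers of other tissues stood above every control in 1 or more RA libraries. The liver miRNA miR-122-5p was at 9493 CPM in RA replicate 1, 5.21 CPM in RA replicate 2 and 0 in RA replicate 3, against 32.1, 9.31 and 1.61 CPM in the controls. The 2 endothelial markers summed to 412, 0 and 233 CPM in the RA libraries and to 3.16, 7.22 and 8.99 CPM in the controls. The 7 blood cell markers summed to 2682, 1683 and 2347 CPM in the RA libraries and to 2021, 1935 and 2104 CPM in the controls. The epithelial list, of which 4 of 5 miRNAs had a row, summed to 218, 188 and 183 CPM in the RA libraries and to 277, 195 and 210.3 CPM in the controls, mostly from miR-200b-3p. Muscle, brain and kidney lists overlapped between the groups. The brain sum of 3914 to 6022 CPM in RA libraries and 4892 to 5293 CPM in controls was nearly all miR-9-5p. The muscle sum of 589 to 698 CPM in RA libraries and 610 to 915 CPM in controls was nearly all miR-206. Within the blood list, whose sum was mostly miR-142 arms and miR-486-5p, other markers stood high in RA libraries. The red cell miRNA miR-451a was at 824, 26.0 and 355 CPM in the RA libraries and at 5.26, 33.8 and 6.10 CPM in the controls, and was called higher (adjusted p = 0.031 from limma) although RA replicate 2 lay inside the control range. The myeloid miRNA miR-223-3p was at 3.95, 20.8 and 145 CPM in the RA libraries and at 0.53, 3.72 and 0.32 CPM in the controls, with no overlap and no call (adjusted p = 0.066). The lymphoid miRNA miR-150-5p was at 0, 0 and 212 CPM in the RA libraries and at 1.05, 0.93 and 0.64 CPM in the controls, and miR-144-3p was at 5.82 CPM or less in every library. The part of these other tissues in the values below was not tested, beyond leaving out each library.

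After RA, 3 of the 5 guides fell, by 1.97-fold to 3.20-fold as ratios of mean CPM, and the remaining guides did not pass the test. The comparison was made with limma on log2(CPM + 1) over all 449 miRNAs, with a Benjamini-Hochberg adjusted p under 0.05 as the threshold and each log2 fold change on that scale. By this test 4.68% of all 449 miRNAs were lower and 2.9% higher, and at a mean of 10 CPM or more, where all 10 members lie, 8.08% of 260 were lower and 3.46% higher. These shares depend on the scaling, with 21 lower and 13 higher on the deposited values but 11 lower and 17 higher both with library totals and with DESeq2 size factors, under which the same 3 guides were called. Of the 5p arms alone 6.08% of 181 were lower, and at 1000 CPM or more, the range of the miR-30 guides, 14.9% of 74 miRNAs. Called with edgeR's quasi-likelihood test, these guides also gave 3 lower of 5, where 6.24% of all miRNAs were lower and 8.46% higher. In these bulk libraries fewer cells of a type and less RNA per cell cannot be told apart.

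hsa-miR-30a-5p, the member that the study followed beside BCL2L11, stood at 9431, 9986 and 6802 CPM in the RA libraries and at 34245, 23139.6 and 26573 CPM in the controls. Every RA library lay far below every control, and the mean after RA was 31.2% of the control mean. Its log2 fold change was -1.68 (95% interval -2.17 to -1.19, adjusted p = 9.3e-04 from limma). By level it was the 7th to 9th miRNA of a control library and the 16th to 24th of an RA library. hsa-miR-30e-5p, which differs from it by 1 base, stood at 2138, 1625 and 1358 CPM in the RA libraries and at 6083, 4467 and 4456 CPM in the controls. The groups did not overlap and the log2 fold change was -1.56 (95% interval -2.04 to -1.08, adjusted p = 0.0012 from limma). hsa-miR-30d-5p, from the pair on chromosome 8, stood at 11914, 8918 and 10196 CPM in the RA libraries and at 23579.6, 17580.1 and 19812 CPM in the controls. Its groups did not overlap either, with a log2 fold change of -0.97 (95% interval -1.42 to -0.53, adjusted p = 0.012 from limma). After RA it became the most abundant 5p member in 2 of 3 RA libraries, while miR-30a-5p was the most abundant in RA replicate 2 and in all 3 controls.

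hsa-miR-30c-5p, made from both MIR30C hairpins, stood at 4859, 3027 and 4153 CPM in the RA libraries and at 4914, 4731 and 5093 CPM in the controls. RA replicate 1 lay inside the control range and RA replicate 2 well below it, with a log2 fold change of -0.32 (95% interval -0.77 to 0.13, adjusted p = 0.42 from limma). hsa-miR-30b-5p stood at 1407, 1167 and 1143 CPM in the RA libraries and at 1368, 1537 and 1503 CPM in the controls. It overlapped in the same way, with a log2 fold change of -0.25 (95% interval -0.65 to 0.15, adjusted p = 0.49 from limma). Both intervals extend well below 0, to -0.77 and -0.65, so these members are not shown to be unchanged.

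**Figure D1:**
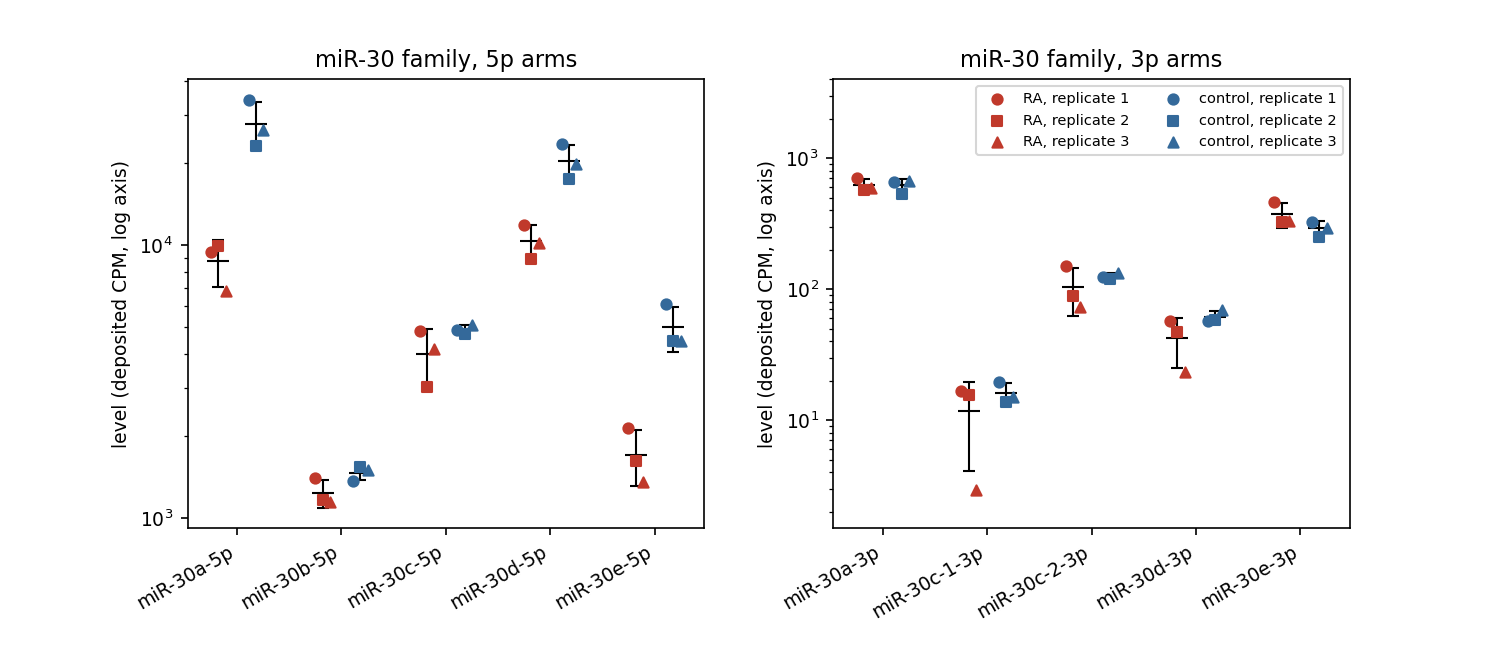
Level of each miR-30 member (deposited CPM, log axis) in RA libraries (red) and control libraries (blue), with the 5p arms on the left and the 3p arms on the right; points are single libraries, horizontal marks are means and bars are SD (n = 3 each). miR-30a-5p, miR-30d-5p and miR-30e-5p have no overlap between the groups, with miR-30a-5p at 6802 to 9986 CPM in the RA libraries against 23139.6 to 34245 CPM in the controls.

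The calls of all 3 lower members ended without RA replicate 3, at an adjusted p of 0.052 for miR-30a-5p, 0.063 for miR-30e-5p and 0.12 for miR-30d-5p from limma. Their log2 fold changes were then -1.51, -1.41 and -0.97. The call of miR-30d-5p also ended without RA replicate 2 (0.059), control replicate 1 (0.11) or control replicate 3 (0.056). RA replicate 1 held nearly all miR-122-5p reads of the RA group. Without it the log2 fold changes were -1.74 for miR-30a-5p, -1.73 for miR-30e-5p and -1.08 for miR-30d-5p, and all 3 passed. RA replicate 3 also held markers of other tissues, with miR-126-3p at 233 CPM and miR-150-5p at 212 CPM. The part of such markers in these calls was not tested. The part of the lower depth of the RA group in these values cannot be told apart from the treatment.

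Over all 5 members, the median log2 fold change of the 5p arms was -0.97, beside 0.00 over all 449 miRNAs and -0.13 over the 74 at 1000 CPM or more. Their summed level was 29749, 24723 and 23651 CPM in the RA libraries and 70189.5, 51454 and 57437 CPM in the controls. The RA mean was 43.6% of the control mean, a log2 difference of -1.20, and the sums did not overlap. As a share of all miRNA reads the sum was 2.60%, 2.69% and 2.73% in the RA libraries and 6.09%, 5.38% and 5.22% in the controls. The 5p seed printed above was matched in RefSeq for miR-30a-5p, miR-30c-5p and miR-30e-5p only. The sum is the supply of that seed only as far as miR-30b-5p and miR-30d-5p share it. A sum over chosen members was given no test. Taken as 1 species, the sum would have ranked behind 2 single miRNAs in each control library and behind 7 to 10 in the RA libraries.

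Within the sum, the mix of members differed between the groups. miR-30a-5p made up 31.7%, 40.4% and 28.8% of the 5p level in the RA libraries and 48.8%, 45.0% and 46.3% in the controls. miR-30d-5p made up 40.0%, 36.1% and 43.1% in the RA libraries and 33.6%, 34.2% and 34.5% in the controls. miR-30c-5p took 16.3%, 12.2% and 17.6% in the RA libraries and at most 9.19% in any control. miR-30e-5p made up 7.19%, 6.57% and 5.74% in the RA libraries and 8.67%, 8.68% and 7.76% in the controls. The shares of miR-30a-5p and miR-30e-5p lay below every control in every RA library, and those of miR-30d-5p and miR-30c-5p lay above. A higher share of a smaller sum is not a higher level, and the level of miR-30d-5p was itself lower after RA. The share of miR-30b-5p also lay above, at 4.73%, 4.72% and 4.83% in the RA libraries against 1.95%, 2.99% and 2.62% in the controls. The level of miR-30a-5p, miR-30d-5p and miR-30e-5p together was 3.75, 4.90 and 3.47 times that of miR-30b-5p and miR-30c-5p in the RA libraries and 10.2, 7.21 and 7.71 times in the controls.

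**Figure D2:**
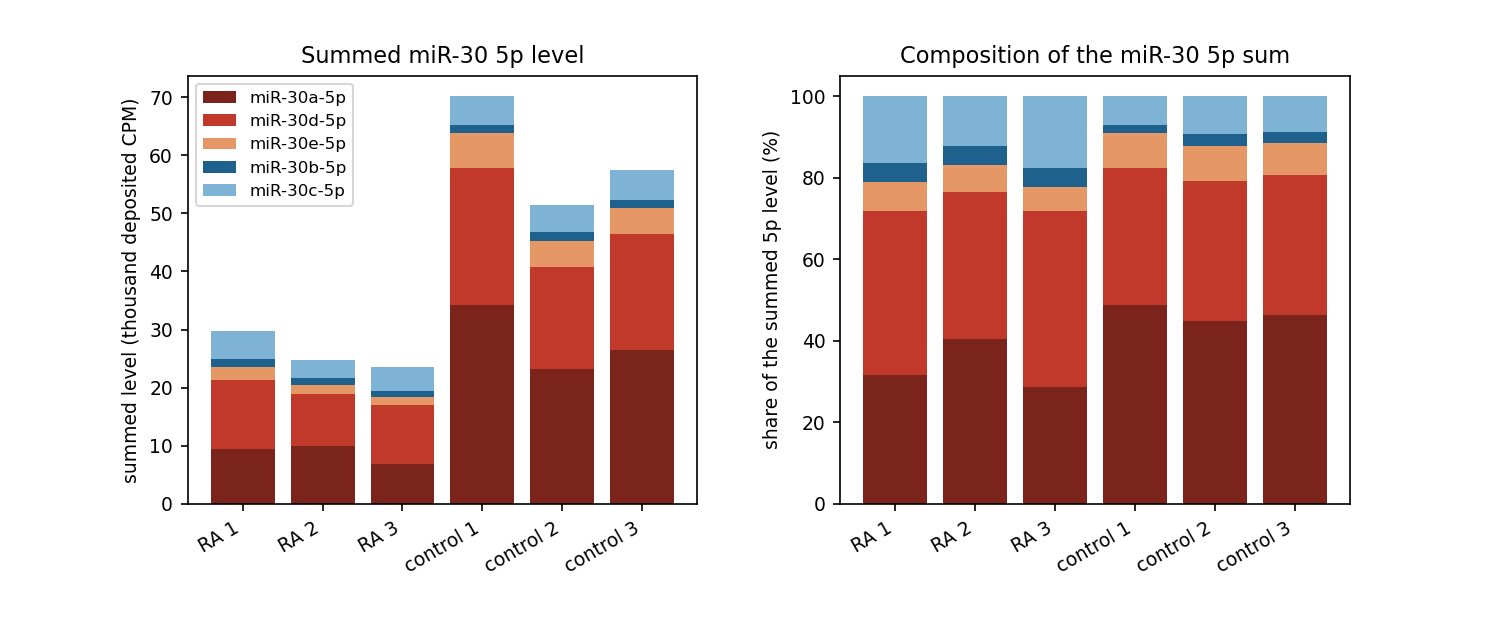
Summed level of the 5 miR-30 5p arms in each library (left, deposited CPM divided by 1000) and the share of each member in that sum (right, %), RA libraries left of control libraries. The sum is 23651 to 29749 CPM in the RA libraries against 51454 to 70189.5 CPM in the controls, and the share of miR-30a-5p is 28.8% to 40.4% against 45.0% to 48.8%.

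Whether the 5p members differed from each other in their response was tested on the log2 ratio of 2 members in the same library, which needs no scaling between libraries. Of 10 pairs, 8 had no overlap between RA and control libraries. Each of these 8 had p = 0.10 by a two-sided exact permutation test, the smallest that 3 against 3 libraries allow, and p = 0.125 adjusted over the 10 pairs, so none could pass. The pairs that overlapped were miR-30a-5p with miR-30e-5p (p = 0.50) and miR-30b-5p with miR-30c-5p (p = 0.90), both by the same exact test. These are the pairs whose members are closest in change, at a difference of -0.12 and 0.07 on the log2 scale. The 10 pairs reuse 5 members, so they are not 10 separate results. Except for miR-30d-5p with miR-30a-5p or miR-30e-5p, each pair without overlap set a called member against an uncalled one. How often pairs of other miRNAs separate the groups was not determined. Of single miRNAs, 17.1% had every RA library below every control and 8.69% above. The count of 8 is thus a description of these members. miR-30e-5p stood at 22.7%, 16.3% and 20.0% of the level of miR-30a-5p in the RA libraries and at 17.8%, 19.3% and 16.8% in the controls, and these percentages overlapped. Members from neighbouring hairpins were among the pairs without overlap. The ratio of miR-30b-5p to miR-30d-5p, from hairpins 4268 bases apart, was higher after RA by 0.72 on the log2 scale. That of miR-30c-5p to miR-30e-5p was higher by 1.24, and the ratio of miR-30a-5p to miR-30c-5p was lower, with a difference of -1.36. The values cannot say which of its 2 hairpins a miR-30c-5p read came from.

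The 3p arms, at far lower levels than the 5p arms, gave no call, where 4.23% of the 189 3p arms measured were lower. hsa-miR-30a-3p stood at 703, 573 and 593 CPM in the RA libraries and at 653, 535 and 672 CPM in the controls, a log2 fold change of 0.01 (95% interval -0.42 to 0.44, adjusted p = 0.99 from limma). Its groups overlapped, and it rested on 712, 110 and 204 reads in the RA libraries. hsa-miR-30e-3p stood at 466, 323 and 332 CPM in the RA libraries and at 327, 251 and 293 CPM in the controls, a log2 fold change of 0.35 (95% interval -0.15 to 0.85, adjusted p = 0.42 from limma). Here 2 of the 3 RA libraries lay above every control. hsa-miR-30c-2-3p ran from 72.7 to 151 CPM in the RA libraries and from 118 to 133 CPM in the controls, and hsa-miR-30d-3p from 23.3 to 57.3 CPM in the RA libraries and from 57.3 to 68.7 CPM in the controls. miR-30c-1-3p, at 2.91 to 16.8 CPM in the RA libraries and 13.7 to 19.5 CPM in the controls, rested on 17, 3 and 1 reads in the RA libraries and is not resolved at this depth. Of the 5 arms, 3 had a log2 fold change below 0 and 2 above, with a median of -0.33. In limma 0 of the 5 had an unadjusted p under 0.05, where 13.8% of all miRNAs had one and were lower and 8.02% were higher. With edgeR 0 of the 5 were called at an adjusted p under 0.05. All RA libraries of miR-30d-3p lay below the controls, RA replicate 1 only just, at 57.27 CPM against a lowest control of 57.35 CPM. RA replicate 3 was at 23.3 CPM on 8 reads. With the 3 lower 5p arms, 4 of 10 members thus had every RA library below every control. The share was 17.1% of all miRNAs and 26.2% of those at 10 CPM or more. For 0 of 10 members every RA library was above every control, beside 8.69% of all miRNAs. Summed, the 3p arms were at 1394, 1047 and 1024 CPM in the RA libraries and at 1181, 977 and 1182 CPM in the controls. This sum overlapped between the groups while the 5p sum did not.

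**Figure D3:**
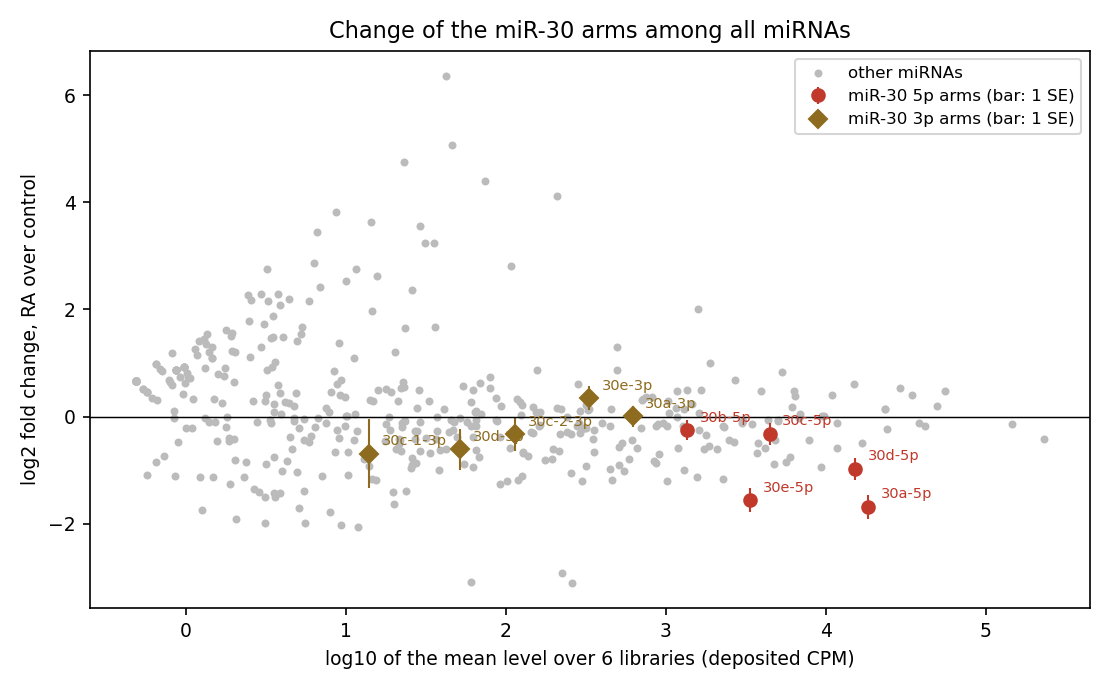
Log2 fold change of RA over control on log2(CPM + 1) against mean level (log10 of deposited CPM) for all 449 miRNAs, with miR-30 5p arms in red and 3p arms in brown (bars: 1 standard error). miR-30a-5p at -1.68, miR-30e-5p at -1.56 and miR-30d-5p at -0.97 lie below most miRNAs of their level, while the 3p arms run from -0.69 to 0.35.

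Setting the arms of 1 hairpin against each other asks whether guide and passenger moved together. Both strands come from the same library, so this ratio is free of the scaling between libraries, apart from the 1 CPM added to each arm. Of all hairpins, 69 had both arms at a mean of 10 CPM or more and were tested with limma on the log2 ratio of 5p to 3p CPM, each plus 1. The ratio was lower after RA for 4.35% of the 69, which is 3 hairpins, and higher for 0%. Of the miR-30 hairpins 4 could be tested and 2 of them, miR-30e and miR-30a, were lower. They had the lowest differences of all 69. These 2 of 4 also had every RA library below every control, as did 18.8% of the 69, and 0 of 4 had every RA library above, as did 11.6%. Ratios below are of reads, with nothing added.

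For miR-30e the 5p to 3p ratio was 4.59, 5.03 and 4.10 in the RA libraries and 18.6, 17.8 and 15.2 in the controls. The difference was -1.91 on the log2 scale (95% interval -2.48 to -1.34, adjusted p = 0.0017 from limma), a ratio 3.76-fold lower after RA. For miR-30a it was 13.4, 17.4 and 11.5 in the RA libraries and 52.4, 43.2 and 39.5 in the controls. The difference was -1.69 (95% interval -2.30 to -1.08, adjusted p = 0.0041 from limma), 3.22-fold lower. In both hairpins the groups were far apart and the 3p level was near or above that of the controls. Put as a share of the reads of its hairpin, miR-30e-3p was 17.9%, 16.6% and 19.6% in the RA libraries and 5.10%, 5.32% and 6.17% in the controls. The widest exact binomial 95% interval among these, in RA replicate 2 with 62 reads of miR-30e-3p, was 13.0% to 20.7%, still above the highest upper bound of a control at 6.57%. The share of miR-30a-3p was 6.94%, 5.43% and 8.02% in the RA libraries and 1.87%, 2.26% and 2.47% in the controls. Such intervals cover counting error only. Both calls held when any 1 of the 6 libraries was left out, with an adjusted p of up to 0.038 for miR-30a and 0.028 for miR-30e from limma.

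The other hairpins of the family did not pass. For miR-30d the 5p to 3p ratio was 208, 190.2 and 438 in the RA libraries and 411, 301 and 288 in the controls, a difference of -0.36 (95% interval -1.21 to 0.48, adjusted p = 0.61 from limma). RA replicates 1 and 2 lay below the controls and RA replicate 3 above them, with 8 reads of miR-30d-3p in that library. For miR-30c, with the 3p arms of both hairpins summed, it was 28.9, 29.1 and 54.9 in the RA libraries and 34.3, 35.8 and 34.5 in the controls. Its difference of 0.04 (95% interval -0.65 to 0.73, adjusted p = 0.93 from limma) was -0.27 without RA replicate 3, which holds 26 reads of its 3p arms. Whether the ratio changed more in miR-30a and miR-30e than in these 2 hairpins was not tested.

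**Figure D4:**
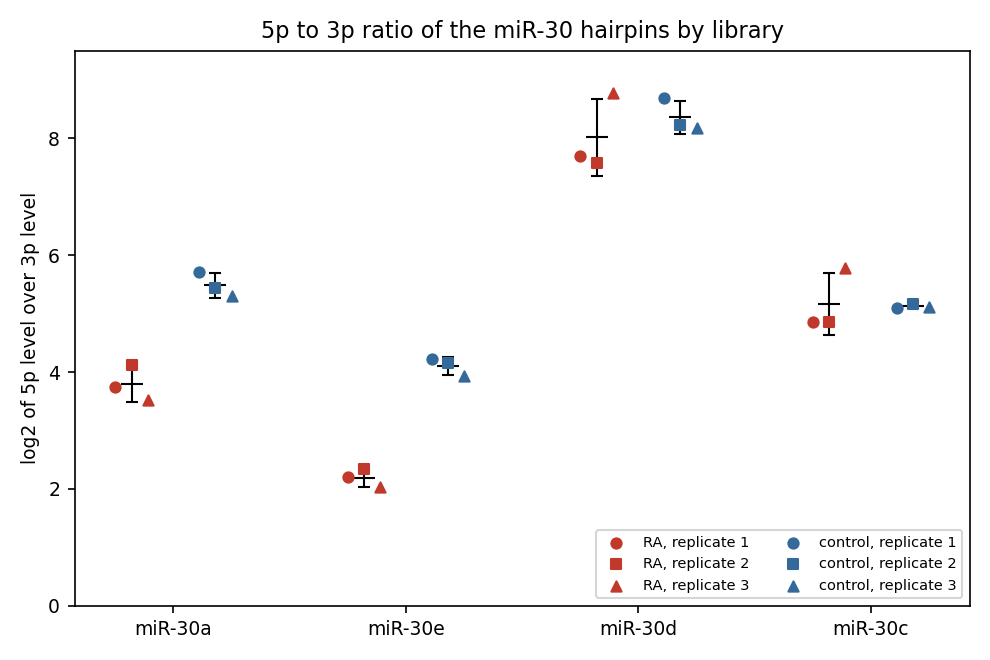
Log2 of 5p level over 3p level for the 4 miR-30 hairpins with both arms measured, RA libraries (red) left of control libraries (blue); points are single libraries, horizontal marks are means and bars are SD (n = 3 each). miR-30a and miR-30e lie lower in every RA library than in every control, at ratios of 11.5 to 17.4 against 39.5 to 52.4 and of 4.10 to 5.03 against 15.2 to 18.6, and miR-30d and miR-30c overlap.

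**Figure D5:**
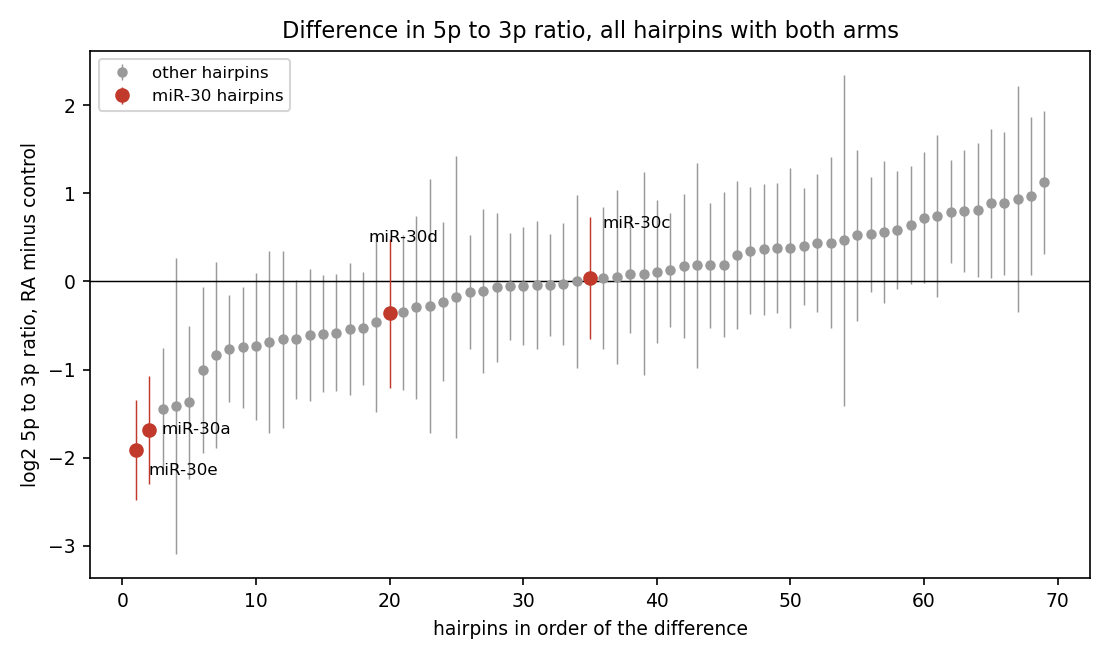
Difference in log2 5p to 3p ratio, RA minus control, for the 69 hairpins with both arms at a mean of 10 CPM or more, in order of the difference; bars are 95% intervals from limma and the 4 miR-30 hairpins are red and named. miR-30e at -1.91 and miR-30a at -1.69 are at the low end, miR-30d at -0.36 lies in the lower part and miR-30c at 0.04 at the middle.

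The next hairpins in this order outside the family were miR-27a at -1.44, miR-193a at -1.41, miR-106b at -1.37, miR-145 at -1.01 and miR-139 at -0.84 on the log2 scale. Only miR-27a passed among these 5 (adjusted p = 0.020 from limma), and its call ended without RA replicate 3, or without any 1 of the controls (adjusted p up to 0.15). In miR-27a the 3p strand is the abundant one, at 7277 CPM after RA and 5595 CPM in the controls, and its 5p strand was at 167 CPM after RA and 345 CPM in the controls. There the lower arm was the rarer strand, in miR-30a and miR-30e the abundant one.

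Likeness to miR-30a-5p was measured as the root mean square difference over the 6 libraries between log2(CPM + 1) values, each taken from its control mean, among 250 other miRNAs with a mean of 10 CPM or more. Within the family it was 0.17 for miR-30e-5p and 0.55 for miR-30d-5p, and 1.02 and 1.04 for miR-30c-5p and miR-30b-5p. Outside the family miR-18a-5p (0.41), miR-190a-5p (0.42), miR-101-3p (0.44), miR-195-5p (0.45) and miR-7-1-3p (0.45) came closest. Of these miR-101-3p (log2 fold change -1.16, adjusted p = 0.0070 from limma) and miR-195-5p (-1.18, adjusted p = 0.0050) passed the test, and miR-18a-5p, miR-190a-5p and miR-7-1-3p did not. In RA replicates 2 and 3, 3 reads stood for 15.6 and 8.72 CPM. There miR-18a-5p and miR-190a-5p were each at 15.6 and 5.82 CPM and miR-7-1-3p at 10.4 and 11.6 CPM, so their likeness is not resolved at this depth. The call of miR-101-3p ended without RA replicate 3 or control replicate 1 (adjusted p up to 0.12), and that of miR-195-5p without control replicate 1 (0.060). miR-101-3p, at 1116, 1740 and 1378 CPM in the RA libraries and 3500.2, 2673 and 3209 CPM in the controls, was the most abundant of these. Nearest to miR-30a-3p were miR-99a-5p (0.054), miR-148b-3p (0.10) and miR-142-5p (0.12), none of which passed the test. These distances are a description, since all points share the same libraries. The miRNAs were picked on the same RA and control values, so their test results are no separate support. Of all miRNAs at 10 CPM or more, 8.08% of 260 were lower.

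In the reference, the 3′UTR of BCL2L11 (GENCODE transcript ENST00000393256.7, 4216 bases) holds 1 match to the miR-30 5p seed, the letters TGTTTAC searched on the transcript strand. It lies on chromosome 2 of GRCh38 at 111164519 to 111164525 on the plus strand, from base 288 of the 3′UTR, and is followed by an A, which favours a seed site. It is shown with its flanks, in capitals where it pairs with the seed of the 3 guides printed above.
BCL2L11 site: tgtaagaatggTGTTTACatgcagtgtgt
The seed match of miR-30a-3p, ACTGAAA, occurs 0 times in that 3′UTR. Of 1610 genes with a longest 3′UTR within 20% of this length, 35.7% hold the first match and 42.7% the second. mRNA was not measured in these libraries.

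Other miRNA families also known to target BCL2L11 were set beside the miR-30 guides. The list held 25 miRNAs, all with values. Of these 5 fell, 1 rose and 19 gave no call, with a median log2 fold change of -0.18 beside -0.17 for all miRNAs at 10 CPM or more. Over all 449 miRNAs 4.68% were lower and 2.9% higher, and over those at 10 CPM or more 8.08% and 3.46%. The lower ones were miR-19b-3p (-2.92) and miR-19a-3p (-3.09), guides of an oncogenic cluster, miR-20a-5p (-1.14) of the same cluster, miR-106b-5p (-1.01) and miR-152-3p (-0.85). All these calls ended without RA replicate 3. That of miR-19a-3p, on 11, 4 and 2 reads in the RA libraries, also ended without control replicate 1. Those of miR-106b-5p, miR-152-3p and miR-20a-5p also ended without any 1 control, and that of miR-20a-5p without RA replicate 2. The higher one was miR-363-3p, which had 7, 1 and 25 reads in the RA libraries and 1, 1 and 0 in the controls, and whose call ended without RA replicate 2 or any 1 control. The most abundant others, miR-148a-3p (-0.14), miR-221-3p (0.17) and miR-24-3p (-0.08), did not pass. The count of lower miRNAs on the list was 6 without RA replicate 1, 5 without RA replicate 2, 0 without RA replicate 3, 1 without control replicate 1, 2 without control replicate 2 and 2 without control replicate 3. The list was written with earlier results of these data known.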

How the data were processed

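Small RNA libraries of BCSCs (3 RA, 3 control) had been made by adapter ligation after RNA ends were repaired. The extraction note in the labels describes brain tissue, while all other labels give BCSCs. For every library the authors deposited a normalized signal per mature miRNA, CPM scaled by an effective library size. A log2 value per group, also deposited by the authors, was not used. The submitters' processing notes name hg19. Which aligner made the counts is not given in the sources used here. Values were whole multiples of 1 read within 0.01 reads in 100% of cases, and reads were recovered from them. Of a miRNA 3 reads stood for 2.96, 15.6 and 8.72 CPM in the RA libraries and for 1.58, 0.698 and 0.963 CPM in the controls.

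The study's methods name a Student test in general and none for the sequencing values. limma 3.58.1 (R 4.3.3) used a mean-variance trend on log2(CPM + 1) of all 449 miRNAs, and on the log2 ratio of the arms of 69 hairpins, with Benjamini-Hochberg adjustment over each. Alternatives were pseudocounts of 0.5 and 5, a filter of 1 CPM in 3 libraries, other scalings, edgeR 4.0.16, DESeq2 1.42.0 and limma-voom on recovered reads, arm minimums of 1 and 100 CPM, 0.5 reads added to each arm, a replicate block and leaving out each library. Both fits were also run on reads simulated with the means and spread of the control libraries alone. The outcome is not given here and lends no support to the calls. The named miRNAs were all members, the 5 most like miR-30a-5p and 3 most like miR-30a-3p, the 5 other hairpins with the lowest ratio difference, and from the BCL2L11 list those past the test and the 3 most abundant others. Members and lists were chosen with earlier results of these data known. RefSeq sequences were matched by name for 7 of the 10 members.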

Additional observations from a re-analysis of the deposited data

How the results depend on the processing

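The count of lower miR-30 members stayed at 3 under every alternative other than leaving out libraries, where it ran from 0 (without RA replicate 3) to 3. The count of lower miRNAs over the whole table was 21, beside 13 higher, and 11 beside 17 higher with library totals and 11 beside 17 higher with DESeq2 size factors. The cause was not tested. Leaving out 1 library gave 4 to 28, with 10 without RA replicate 3 and 4, 13 and 9 without control replicates 1, 2 and 3. edgeR called 28 lower and 38 higher against 21 and 13, DESeq2 21 and 45, and limma-voom 30 and 47. The median change over the table (log2) was 0.13 with library totals and 0.17 with DESeq2 size factors, against 0.00. miR-30a-5p was then at -1.54 and -1.50, miR-30e-5p at -1.42 and -1.38, and miR-30d-5p at -0.84 and -0.79, all still called. The lower hairpins by arm ratio were 3, 5 of 35 at a minimum of 100 CPM, and 2 to 6 (6 without RA replicate 1) when 1 library was left out, while miR-30a and miR-30e were called under all 12 alternatives. Values that were never called changed sign when 1 library was left out for miR-30a-3p (-0.095 to 0.069), miR-30c-1-3p (-1.07 to 0.023) and the miR-30c ratio (-0.27 to 0.19). Of the 10 pairs, 8 to 9 had no overlap without 1 library. The summed 5p level was at -1.06 with library totals, -1.02 with DESeq2 size factors, and -1.30 to -1.06 without 1 library.

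With the replicate number as a block, 31 miRNAs were lower in place of 21 and 24 higher in place of 13, and 3 members stayed lower. Deviations from the group means of same-numbered libraries correlated at 0.12, -0.19 and 0.13 over 260 miRNAs. Those of libraries with different numbers correlated at -0.25 to 0.14. With 3 libraries per group these values cannot show whether the numbers pair the libraries. The ratios of miR-30d and miR-30c are limited by depth, with 9 and 8 reads of miR-30d-3p and 20 and 26 reads of the miR-30c 3p arms in RA replicates 2 and 3.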
